A study of Saccharomyces cerevisiae with 24 samples.

Results

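The genes described here encode replicative DNA polymerases and proteins of the replication fork in budding yeast (Saccharomyces cerevisiae). They are POL1, POL12, PRI1 and PRI2 of DNA polymerase alpha-primase, POL2 of polymerase epsilon, POL3 of polymerase delta, the sliding clamp POL30, the single-strand binding proteins RFA1 and RFA2, and the flap endonuclease RAD27. They were chosen by name for their role at the fork, and all 10 were found among the 6562 genes of the deposited table. The study sampled strain CEN.PK in the yeast metabolic cycle, in minimal medium, and took RNA at 0, 20, 60, 110, 140, 180, 200, 210, 220, 230, 240 and 260 min. In that cycle a dense, glucose-limited culture alternates as one between high and low oxygen consumption. Each time point had 1 RNA-seq library, and the labels do not say whether all came from 1 culture. The 12 MNase-seq samples, which map nucleosomes, were not analysed here.

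At a replication fork the helicase opens the duplex, and polymerase alpha-primase lays down a short RNA-DNA primer that the other polymerases extend. Polymerase epsilon copies the leading strand and polymerase delta the lagging strand, held to DNA by the ring-shaped clamp (PCNA, the product of POL30). RPA, to which Rfa1 and Rfa2 belong, covers exposed single strands, and Rad27 trims the flaps left where Okazaki fragments meet. In dividing yeast many of these genes are transcribed late in G1, under the transcription factor MBF.

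Depth was read from the values themselves and ran from 4380000 reads at 20 min to 5980000 at 0 min. Levels are in RPKM (reads scaled for gene length and depth), obtained by dividing the deposited coverage by the read length of 50 bases. The thinnest value of any of the 10 genes rested on about 83 reads (POL12 at 260 min, 7.61 RPKM, exact 95% Poisson interval 6.06 to 9.43) and the deepest on about 1521. Such intervals cover counting error only. No time point has a replicate, so the tests take as error how far libraries lie from a smooth curve over time, and their p-values measure that scatter only. The median RPKM of all genes tested lay between 32.8 at 20 min and 48.2 at 210 min, and comparisons between libraries are therefore also given relative to the median gene.

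The 10 transcripts shared their time of highest level. Each was highest at 230 or 240 min, 8 at 240 min and 2 at 230 min, whereas 27% of all genes tested had their highest library at either time. All 10 stayed highest at 230 or 240 min with median-ratio scaling or quantile normalization. The split between these times depended on the scaling, 240 min being above 230 min in 5 of the 10 under either. In 9 of the 10 genes the libraries at 0, 230 and 240 min all lay above every other library, which was so for 8.33% of all genes tested. This grouping of libraries was chosen after the values were seen. PRI1 was the exception, its 0 min library having 47.0 RPKM and its 220 min library 47.1 RPKM. With median-ratio scaling or quantile normalization of the libraries the separation held for 8 of the 10. Low points were less uniform, with 4 genes lowest at 20 min, 3 at 260 min, 2 at 220 min and 1 at 110 min. Of the 10, 7 were thus lowest at 20, 60 or 260 min, against 48.2% of all genes tested. At 260 min every one of the 10 was at less than 0.5 times its level at 240 min, the ratio running from 0.116 for POL30 to 0.493 for RFA1. Of all genes tested, 25.1% were lower by 2-fold at 260 min, on log2(RPKM + 1). With median-ratio scaling 4 of the 10 were lower by 2-fold, and with quantile normalization 6 were. Because RNA was taken from whole cultures, fewer cells expressing a gene and less RNA per cell cannot be told apart.

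**Figure D1:**
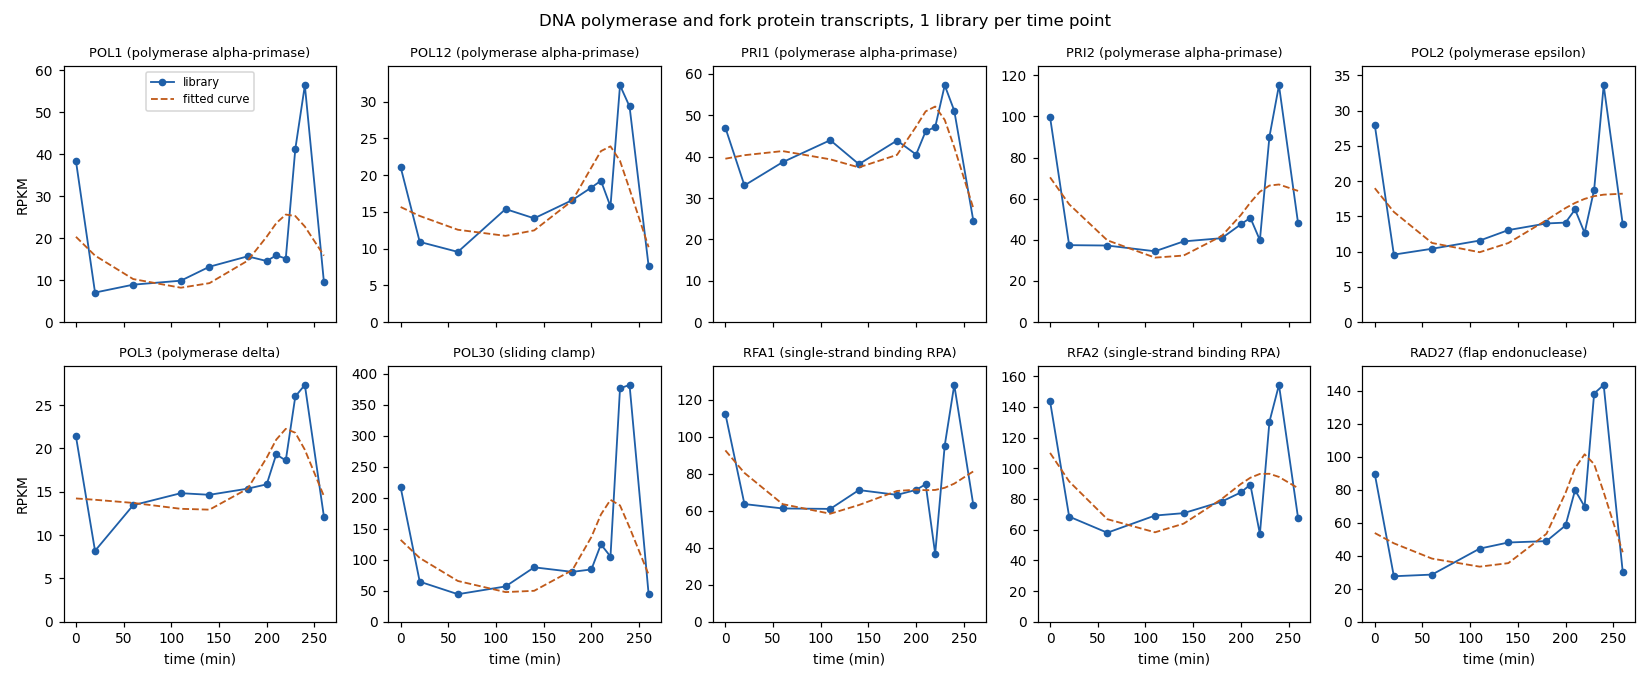
RPKM of each of the 10 genes (y axis, linear from 0) against time in minutes (x axis). Points are single libraries and the dashed line is the fitted spline. In every panel the library at 240 min lies above the curve and the libraries at 220 and 260 min lie below it.

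None of the 10 genes passed the test for variation over the time course. A spline over the sampled minutes, with 4 degrees of freedom, was fitted by limma to log2(RPKM + 1) of 6493 genes, and 20.7% of all genes tested passed it at an adjusted p of 0.05. Adjusted p for the 10 genes ran from 0.192 (RAD27) to 0.861 (RFA1), and 0 of them had an unadjusted p under 0.05. Their fitted ranges, the highest minus the lowest fitted value, ran from 0.66 for RFA1 to 2.02 for POL30, with a median of 1.02, against 1.10 over all genes tested. Their observed ranges had a median of 1.74, against 1.64 over all genes tested. The fitted curve did not follow the late libraries. At 240 min all 10 genes lay above it, by 0.27 to 1.32 on the log2 scale, and at 260 min all 10 lay below it, with residuals of -0.76 to -0.16. At 0 min all 10 lay above the curve and at 20 min all 10 below. How many of all genes tested lay above or below their own curves was not counted. The median RPKM of all genes tested was itself lower at 20 and 260 min (32.8 and 37.9) than at 0 and 240 min (45.7 and 48.2). With 5 degrees of freedom POL30 passed (range 3.07 ± 0.55 SE, limma adjusted p = 0.0105) and so did RAD27 (2.37 ± 0.45, adjusted p = 0.0161), in a fit that called 39.9% of all genes. With 6 degrees of freedom, tried only once the data had been seen, POL30 and RAD27 passed again (limma adjusted p of 0.00722 for POL30 and 0.019 for RAD27) and 32.1% of all genes were called. Time point number in place of minutes with 5 degrees of freedom, tried at the same stage, passed POL30, RAD27 and POL1 (limma adjusted p of 0.0154, 0.0254 and 0.0474), with 45.8% of all genes called. Calls also changed when 1 library was left out, and the cause was not tested. Without 0 min PRI1, POL3 and RAD27 passed (limma adjusted p of 0.0343, 0.0126 and 0.00756, with 51% of all genes called). Without 260 min POL1 and POL30 passed (adjusted p of 0.0486 and 0.0336, with 12.8% of all genes called).

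Polymerase alpha-primase was followed through all 4 of its subunits. POL1 (YNL102W, build R64, chromosome XIV, 430087 to 434493), the catalytic polymerase subunit, had 38.4, 7.04, 8.92, 9.87, 13.2, 15.7, 14.6, 15.9, 15.1, 41.2, 56.4 and 9.54 RPKM in order of time. Its libraries at 0, 230 and 240 min thus stood well above the rest, and its highest value was 8.00 times its lowest. POL12 (YBL035C, chromosome II, 151493 to 153610), the regulatory B subunit, had 21.1, 10.9, 9.56, 15.4, 14.1, 16.6, 18.3, 19.2, 15.7, 32.2, 29.3 and 7.61 RPKM. Its span was narrower, 4.23-fold, and 0 min was barely above 210 min. Neither gene passed the test (fitted range 1.53 ± 0.66, adjusted p = 0.435 for POL1, and 1.15 ± 0.54, adjusted p = 0.288 for POL12, limma).

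The primase subunits of the same complex differed in amplitude. PRI1 (YIR008C, chromosome IX, 373077 to 374306), the catalytic primase subunit, had 47.0, 33.1, 38.7, 44.0, 38.2, 43.9, 40.5, 46.1, 47.1, 57.3, 51.1 and 24.5 RPKM. It was the flattest of the 10 genes, with 2.34-fold between its highest and lowest library. Its lowest library was that of 260 min, as for POL12 and POL30. PRI2 (YKL045W, chromosome XI, 353493 to 355079), the large primase subunit, had 99.6, 37.4, 37.2, 34.4, 39.2, 40.8, 47.5, 50.7, 39.8, 90.1, 115 and 48.2 RPKM. Here 0, 230 and 240 min stood far above the other 9 libraries, which reached at most 50.7 RPKM. The fitted ranges were 0.90 ± 0.32 for PRI1 and 1.14 ± 0.58 for PRI2 (limma adjusted p of 0.248 and 0.291).

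The levels of these subunits relative to each other therefore shifted over the course. The ratio of PRI2 to PRI1, both per kilobase, was 2.12 at 0 min, 0.783 at 110 min, 0.845 at 220 min, 2.25 at 240 min and 1.97 at 260 min. POL1 over POL12 was 1.82 at 0 min, 0.642 at 110 min and 1.92 at 240 min. POL1 was at 0.213 times the level of PRI1 at 20 min and 1.10 times at 240 min. These ratios are free of any scaling by 1 factor per library, though quantile normalization, which works by rank, could change them. They have no replicate and were not tested.

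Of the polymerases that extend primers, POL2 (YNL262W, chromosome XIV, 148212 to 154880), the catalytic subunit of polymerase epsilon, had 28.0, 9.58, 10.4, 11.6, 13.1, 14.0, 14.1, 16.0, 12.7, 18.8, 33.6 and 13.9 RPKM. Its 240 min library exceeded 230 min by 1.79-fold, the widest such difference among the 10 genes. POL3 (YDL102W, chromosome IV, 276872 to 280165), the catalytic subunit of polymerase delta, had 21.4, 8.19, 13.5, 14.8, 14.7, 15.4, 15.9, 19.3, 18.6, 26.0, 27.3 and 12.1 RPKM. It was near its peak by 230 min, so the ratio of POL2 to POL3 was 0.723 at 230 min and 1.23 at 240 min. Fitted ranges were 0.87 ± 0.56 for POL2 and 0.74 ± 0.37 for POL3 (limma adjusted p of 0.519 and 0.416).

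The smaller subunits of polymerases epsilon and delta and of RPA were set beside them as a list of 6 genes, 0 of which passed the test (limma), against 20.7% of all genes tested. Of the 6, 5 were highest at 230 or 240 min, against 27% of all genes tested. For polymerase delta, the second subunit, POL31, peaked at 71.5 RPKM (240 min) over a low of 26.6 RPKM (220 min). POL32, the third subunit, reached 62.8 RPKM at 240 min, with its low of 11.2 RPKM at 260 min. In RPKM these partners of POL3 had their highest value in the same library as it. The peak of POL3 was not resolved between 230 and 240 min, however, because its Poisson intervals overlapped. It had 26.0 RPKM at 230 min (23.6 to 28.5) and 27.3 RPKM at 240 min (24.9 to 29.9). For polymerase epsilon, DPB2, its essential second subunit, had a low of 5.48 RPKM (60 min) and a high of 41.0 RPKM (230 min). The histone-fold subunit DPB4 had a low of 25.4 RPKM (20 min) and a high of 92.8 RPKM (230 min). The other histone-fold subunit, DPB3, was the one with another peak time, at 104 RPKM in the 200 min library and 43.1 RPKM in that of 220 min. RFA3, the smallest RPA subunit, peaked at 218 RPKM (240 min), with a low of 80.6 RPKM (220 min).

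The clamp gene POL30 (YBR088C, chromosome II, 424990 to 425766) was the most abundant of the 10 on average and had the widest span. It had 217, 64.6, 44.4, 56.9, 87.8, 80.4, 84.4, 125, 105, 376, 382 and 44.3 RPKM in order of time, an 8.61-fold span. Its level stood 3.58 times higher at 230 min than at 220 min. RAD27 (YKL113C, chromosome XI, 224727 to 225875), whose protein binds the clamp, had 89.5, 27.6, 28.6, 44.3, 48.0, 48.9, 58.3, 79.7, 69.8, 138, 144 and 30.0 RPKM. Both genes were higher at 210 min than at any time from 20 to 200 min, lower at 220 min, and highest at 230 and 240 min. In the main test POL30 had a fitted range of 2.02 ± 0.72 (limma adjusted p = 0.265) and RAD27 one of 1.58 ± 0.52 (adjusted p = 0.192).

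The RPA genes were lowest at 220 min, as were 21.6% of all genes tested. RFA1 (YAR007C, chromosome I, 156754 to 158619), the largest RPA subunit, had 112, 63.6, 61.2, 61.0, 71.2, 68.6, 71.3, 74.3, 36.7, 95.2, 128 and 63.0 RPKM. Its lowest library lay at 0.493 times its level at 210 min, while from 20 to 210 min it lay between 61.0 and 74.3 RPKM. RFA2 (YNL312W, chromosome XIV, 48287 to 49216), the middle subunit, had 144, 68.5, 58.0, 69.2, 70.8, 78.3, 84.3, 89.4, 57.2, 130.3, 154 and 67.8 RPKM. RFA3, POL31 and DPB3 had the same low point. The ratio of RFA2 to RFA1 stayed between 0.948 at 60 min and 1.56 at 220 min, the narrowest of the 4 partner ratios plotted. Fitted ranges were 0.66 ± 0.57 for RFA1 and 0.90 ± 0.55 for RFA2 (limma adjusted p of 0.861 and 0.561).

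**Figure D2:**
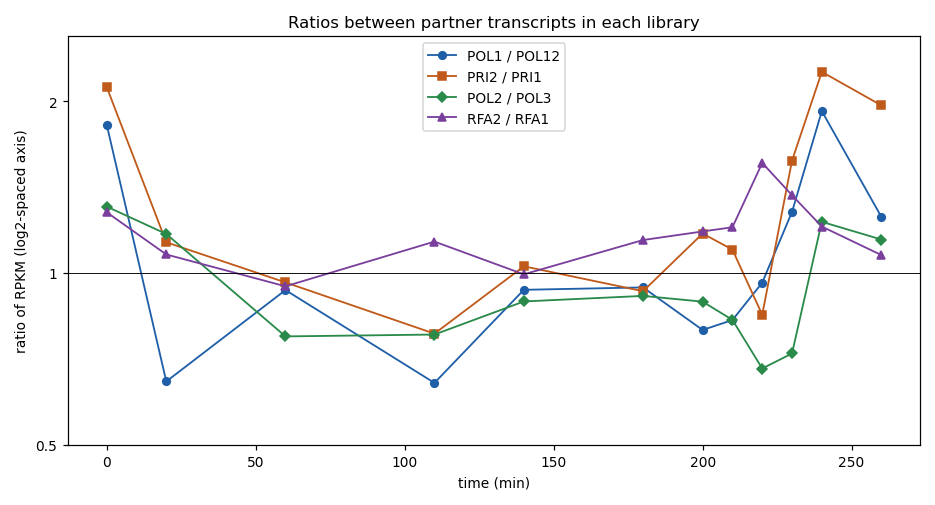
Ratio of RPKM between partner transcripts (y axis, log2-spaced) in each of the 12 libraries against time in minutes (x axis). PRI2 over PRI1 and POL1 over POL12 are at 2.25 and 1.92 at 240 min, while RFA2 over RFA1 stays between 0.948 and 1.56.

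Between neighbouring libraries, the widest differences of these genes lay at 3 of the 11 steps. A step is the later minus the earlier value of log2(RPKM + 1), with 1 library on each side and no test. From 0 to 20 min all 10 genes were lower, 7 of them by 2-fold, as were 19.7% of all genes tested. The median of the 10 was -1.34, against -0.41 over all genes tested, and POL1 had the widest difference, -2.29. From 220 to 230 min all 10 were higher, 5 of them by 2-fold, against 7.45% of all genes tested. Their median was 1.07, against 0.06 over all genes, with PRI1 lowest at 0.27 and POL30 highest at 1.83. From 240 to 260 min all 10 were lower by 2-fold, against 25.1% of all genes tested. The median was -1.23, against -0.29 over all genes, from -1.01 for RFA1 to -3.08 for POL30.

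These counts depended on the scaling between libraries, and the directions did not. Median-ratio scaling, which centres the median gene of each library, left 4 of 10 genes lower by 2-fold from 0 to 20 min, 5 higher from 220 to 230 min and 4 lower from 240 to 260 min. The shares of all genes past 2-fold in those directions were then 10.5%, 5.82% and 19.0%. Quantile normalization gave 3, 6 and 6 of 10. Under both, all 10 genes kept the direction given above at each of the 3 steps. From 0 to 20 min the least changed gene was then barely lower, at -0.09 with median-ratio scaling and -0.02 with quantile normalization. From 210 to 220 min 9 of 10 genes were lower. None was lower by 2-fold on this scale, against 14.6% of all genes tested, although RFA1 lay at the threshold, its RPKM ratio being 0.493. That direction was not stable, with 6 of 10 lower under median-ratio scaling and 5 of 10 under quantile normalization. At the steps between 20 and 200 min the 10 genes lay between -0.53 and 0.65.

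**Figure D3:**
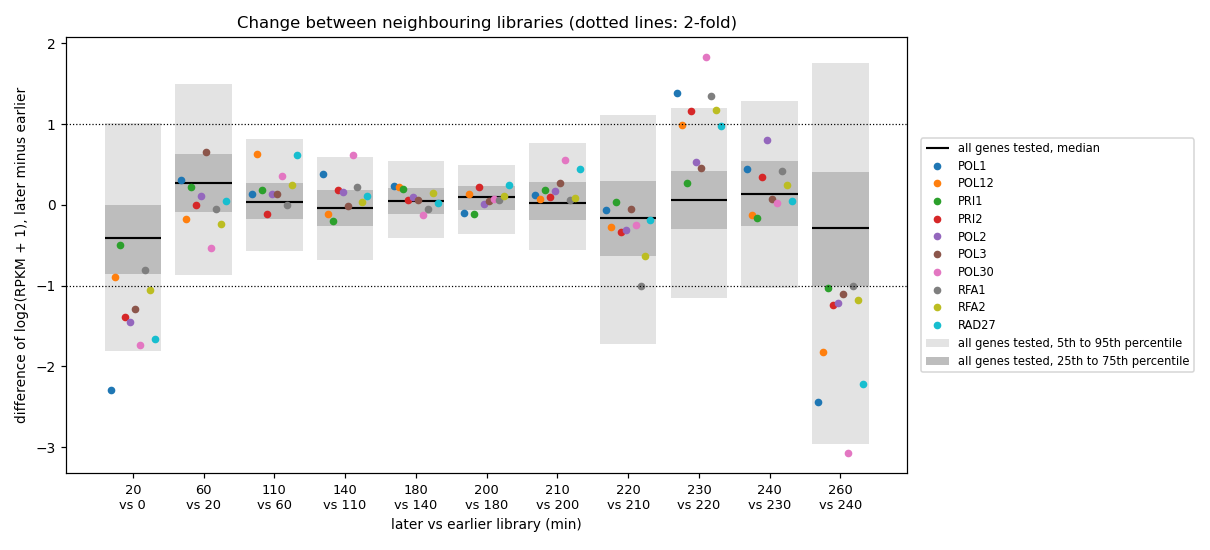
Difference of log2(RPKM + 1) between neighbouring libraries, later minus earlier (y axis), for each of the 11 steps (x axis). Coloured points are the 10 genes, grey bars the spread of all genes tested and black lines their median. The points lie together below the median at 20 vs 0 and 260 vs 240 min and above it at 230 vs 220 min.

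The first and last libraries were not alike for these genes. All 10 were higher at 0 min than at 260 min, with a median difference of 1.05 on the log2 scale, against 0.25 over all genes tested. Of the 10, 6 differed by at least 2-fold, as did 17% of all genes tested. In RPKM the ratio of 0 to 260 min ran from 1.76 for POL3 to 4.89 for POL30. The levels at 260 min were instead near those at 20 min, with ratios of 0.686 (POL30) to 1.48 (POL3).

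On the RPKM scale, which is per length, the mean level over the 12 libraries fell into a high and a low set. The low set held the longest of the 10 genes, from 2118 (POL12) to 6669 bases (POL2). Genes of the high set had at most 1866 bases (RFA1), and a part played by length was not tested. POL30 averaged 139 ± 121, RFA2 89.3 ± 33.9, RFA1 75.5 ± 24.9, RAD27 67.2 ± 39.7, PRI2 56.7 ± 28.0 and PRI1 42.6 ± 8.53 RPKM. POL1, POL12, POL3 and POL2 averaged 20.5 ± 15.8, 17.5 ± 7.37, 17.3 ± 5.58 and 16.3 ± 7.28 RPKM. These SDs are over times (n = 12), not replicates. The median gene tested averaged 46.5 RPKM. PRI1, the lowest of the high set and itself below that median gene, was above POL1 in 11 of the 12 libraries. Within the low set, neighbours changed places, POL1 being above POL12 in 4 of 12 libraries, POL12 above POL3 in 6 of 12 and POL3 above POL2 in 8 of 12, so their order was not separated beyond their spread. In the high set, each gene was above the next in 8 to 10 of 12 libraries.

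The courses of the 10 genes were alike by correlation of log2(RPKM + 1) over the 12 libraries, which share their depth and scaling. Each was compared with the mean of the other 9, each scaled to unit SD. Pearson's r was 0.713 for PRI1, 0.740 for RFA1 and 0.890 to 0.982 for the others, with POL1 highest. The 6483 other genes tested were compared with the mean of all 10. Their median r was 0.28, and 15.6% reached the value of PRI1, a share not recounted under other scalings. That median depended on the scaling and was 0.02 with median-ratio scaling and 0.07 with quantile normalization. Over the 45 pairs r ran from 0.359 for PRI1 with RFA1 to 0.957 for POL1 with POL30, with a median of 0.826.

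The 10 other genes most like the mean profile, named in the annotation and averaging 10 RPKM or more, had r of 0.963 to 0.990. Several of them act in or around replication. CLB5 (YPR120C, r = 0.989) is a B-type cyclin that triggers origin firing, and its level was 65.3 RPKM in the 240 min library against 14.7 RPKM in that of 260 min. TOF1 (YNL273W, r = 0.973) stabilises paused forks, CDC9 (YDL164C, r = 0.969) is the ligase that seals Okazaki fragments, and RTT106 (YNL206C, r = 0.973) is a histone chaperone. MSH6 (YDR097C, r = 0.972) acts in mismatch repair. TUB4 (YLR212C, r = 0.987) encodes gamma-tubulin of the spindle pole, while BNI4 (YNL233W, r = 0.973) and GIN4 (YDR507C, r = 0.963) act at the bud neck. JEM1 (YJL073W, r = 0.990), a chaperone of the endoplasmic reticulum, was the closest of all. None of the 10 passed the spline test (limma adjusted p of 0.312 to 0.634). With median-ratio scaling 8 of these 10 genes were again the closest, and with quantile normalization 6 were.

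**Figure D4:**
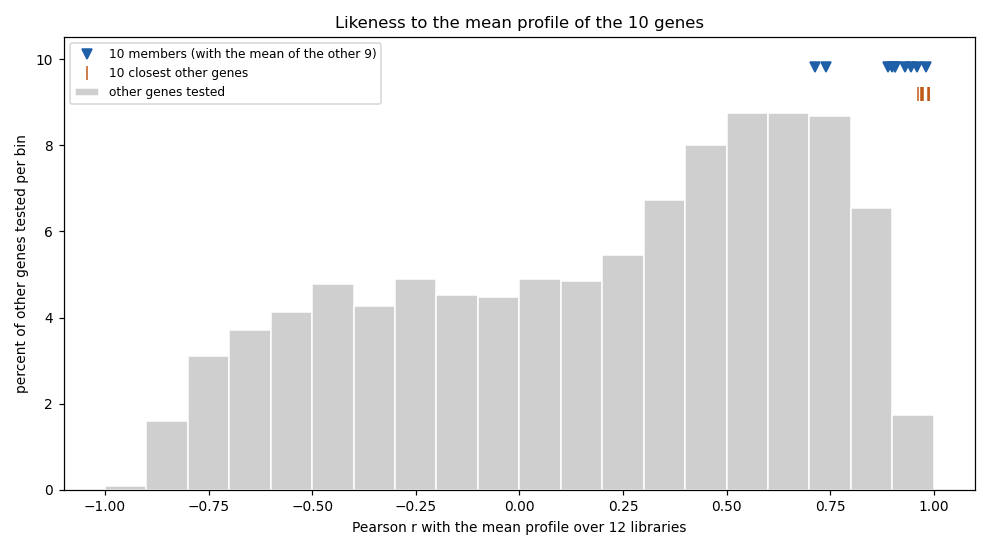
Share of other genes tested (y axis, percent per bin) by Pearson r with the mean profile of the 10 genes over 12 libraries (x axis). Triangles are the 10 genes, each against the mean of the other 9, and ticks the 10 closest other genes. The triangles run from 0.713 to 0.982.

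Other genes of DNA replication and of processes around it were read from 13 lists with 116 genes, all tested. Of these, 17 passed the spline test, 7 of them histones, against 20.7% of all genes tested. Of the factors that load or unload the clamp, 9 of 10 were highest at 230 or 240 min, against 27% of all genes tested, and their median r with the mean profile of the 10 fork genes was 0.696. Of the 10, 1 passed. RFC4 (YOL094C), a clamp loader subunit with a high of 72.4 RPKM (230 min) and a low of 13.8 RPKM (260 min), passed the test with a fitted range of 1.95 ± 0.44 (limma adjusted p = 0.0343). Other fork and Okazaki fragment proteins had 10 of 13 highest at 230 or 240 min, and origin firing and CMG (helicase) assembly 7 of 11, with 0 called in both. Mismatch repair had 5 of 6 highest then and sister chromatid cohesion 7 of 9, again with 0 called.

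MCM and origin licensing genes place the helicase on origins before replication starts. Of these, 4 of 14 passed, against 20.7% of all genes tested. At 230 or 240 min 7 of 14 were highest, against 27% of all genes tested. Their mean profile was highest at 230 min and lowest at 260 min. MCM7 (YBR202W), a helicase subunit, had 22.9 RPKM at 0 min, a high of 72.6 RPKM (230 min) and a low of 6.49 RPKM (260 min), with a fitted range of 2.54 ± 0.59 (limma adjusted p = 0.0433). ORC3 (YLL004W), of the origin recognition complex, had a high of 32.2 RPKM (220 min) and a low of 5.39 RPKM (260 min), with a fitted range of 1.88 ± 0.39 (limma adjusted p = 0.0202). The median r of this list with the mean profile of the 10 genes was 0.501, against 0.796 for the other fork proteins and 0.809 for origin firing.

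In deoxynucleotide synthesis 2 of 9 passed and 3 of 9 were highest at 230 or 240 min, both near the shares of all genes tested (20.7% and 27%). RNR2 (YJL026W), a small subunit of ribonucleotide reductase, had a low of 223 RPKM (20 min) and a high of 583 RPKM (200 min), with a fitted range of 1.44 ± 0.35 (limma adjusted p = 0.0409). DFR1 (YOR236W), dihydrofolate reductase, had a high of 91.1 RPKM (220 min) and a low of 17.8 RPKM (260 min), with a fitted range of 2.00 ± 0.43 (limma adjusted p = 0.0304). Of 6 genes of replication-coupled chromatin assembly, 5 were highest at 230 or 240 min, and MSI1 (YBR195C), a subunit of chromatin assembly factor 1, passed (1.81 ± 0.40, adjusted p = 0.0281). Of 6 replication checkpoint genes, RAD9 (YDR217C) passed (1.14 ± 0.28, adjusted p = 0.0439) and 3 were highest then. Of 11 G1/S transcription factors and cyclins, the G1 cyclin CLN1 (YMR199W) passed (1.57 ± 0.40, adjusted p = 0.0444) and 6 were highest then. RFC4, MCM7, ORC3, RNR2, DFR1, MSI1, RAD9 and CLN1 each lost theirs without 210, 220, 230, 240 or 260 min and with 3 degrees of freedom, with limma adjusted p of up to 0.370 over all 25 alternatives.

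Translesion, repair and mitochondrial polymerases, which do not build the normal fork, were set beside the 10 genes as well. Of 6, 1 was highest at 230 or 240 min, against 27% of all genes tested, and 0 passed, against 20.7%. With 6 genes, these counts do not set the list apart from all genes. Their median r was 0.18. From 240 to 260 min their median step was -0.28, against -1.23 for the 10 fork genes and -0.29 over all genes tested. Histones, which package the new DNA, had 0 of 9 genes highest at 230 or 240 min, and 7 passed, beside the same shares of all genes. HTB2 (YBL002W) had a high of 2170 RPKM (20 min) and a low of 186 RPKM (110 min), with a fitted range of 3.51 ± 0.54 (limma adjusted p = 0.00748). HTA2 (YBL003C), which may share reads with its near-identical copy HTA1, had a high of 1468 RPKM (0 min) and a low of 184 RPKM (110 min), with a fitted range of 3.12 ± 0.38 (limma adjusted p = 0.00415).

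**Figure D5:**
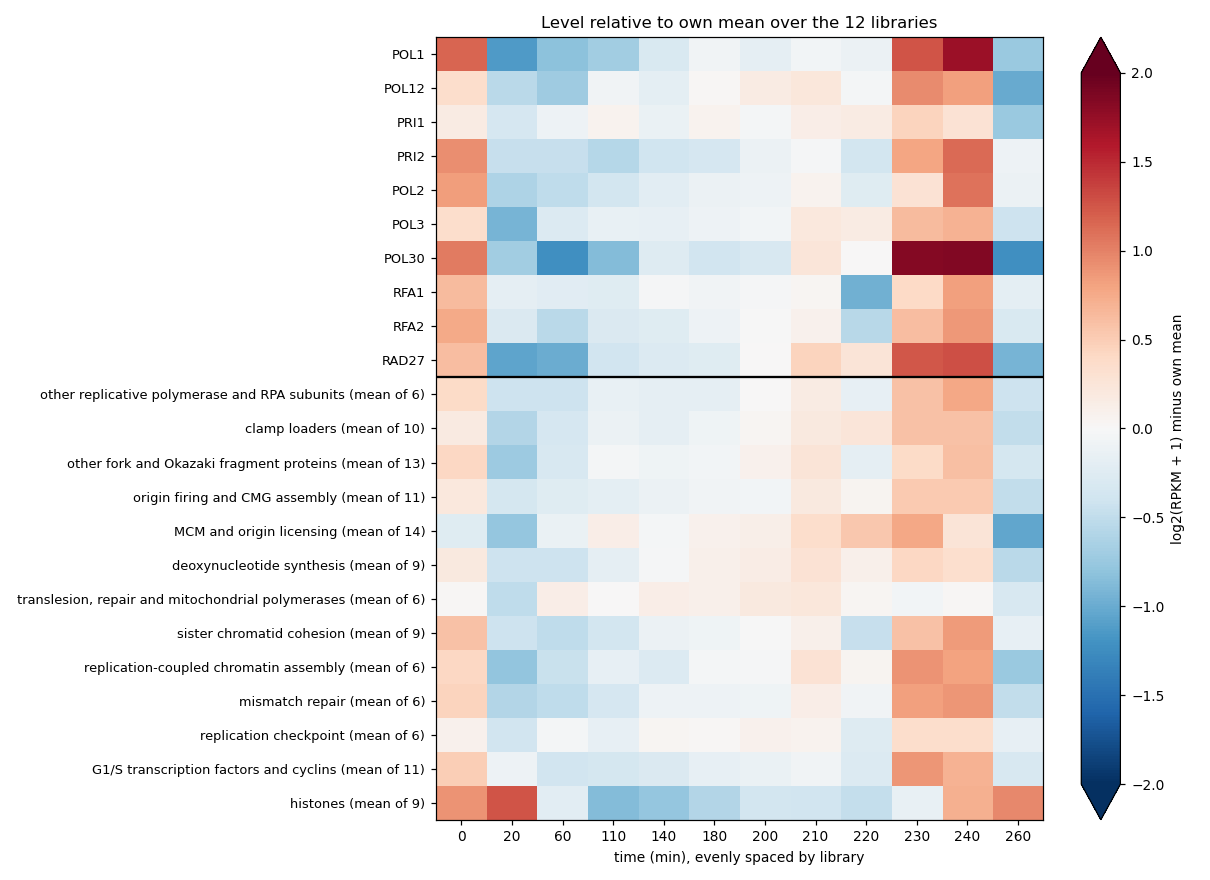
Level in each library as log2(RPKM + 1) minus the gene's own mean (colour, red higher and blue lower), for the 10 genes (upper rows) and the means of the 13 lists (lower rows), with time in minutes along the x axis. The upper rows are red at 0, 230 and 240 min, and the histone row is red at 0, 20, 240 and 260 min.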

How the data were processed

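Hot phenol RNA from 12 time points, 1 library each, went into NEBNext Ultra libraries, per the labels' protocols. This kit does not mark the strand. Bowtie2 and the R64 build come from the submitters' processing notes. The read counter is not given in the sources used here. Per gene and library, the authors deposited a signal headed RKPM, and a table of each gene as a fraction of its highest library, which was used only to check the first. Of 6562 genes, 5891 matched an R64 annotation. The signal times gene length less 1 base gave whole bases (within 0.1) for 100% of 1195 values under 200 bases. With the full length it did so for 50% to 56.6%. The signal is thus base coverage scaled by length and depth, a case the design had allowed for. These whole-base steps gave the depths. A pile-up at multiples of 50 bases gave the read length by which the signal was divided to obtain RPKM. Depth and read length thus rest on the values. There were 4 empty lines among the deposited rows.

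Genes averaging 1 RPKM or more were tested in limma 3.58.1 (R 4.3.3) on log2(RPKM + 1), with a spline of 4 degrees of freedom, a trend in the mean and Benjamini-Hochberg adjustment over 6493 genes, leaving 7 residual degrees of freedom. Fold changes on this scale understate those of low genes. The fit was tested on simulated data with less scatter than these libraries and with changes drawn as splines of the fitted form. That test therefore does not show how the fit performs on these data. The genes, lists and tests were chosen with earlier results of these data known. Beside all 10 fork genes, the text names the 10 genes closest to their mean profile, of which 1 is not reported here, and the 2 widest passing genes of each list, with the whole list of smaller polymerase and RPA subunits. None of the 10 genes overlaps another gene of the annotation. Promoter sequences were not analysed here.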

Additional observations from a re-analysis of the deposited data

How the results depend on the processing

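The number of genes called in all was 1343. It was 145 with 3 degrees of freedom, 2589 with 5, 2657 with time point number, 2083 with 6 degrees of freedom and 2973 with 5 degrees of freedom over time point number, the last 2 chosen after seeing the data. Leaving out 1 library gave 277 to 3309. Of the 10 fork genes 0 passed as reported, 2 with 5 degrees of freedom, 2 with 6, 3 with 5 over time point number, and 0 to 3 when 1 library was left out. The cause was not tested, and changing the degrees of freedom or the libraries also moves the knots of the curve. The count of fork genes lower by 2-fold from 0 to 20 min, 7, became 4 with a pseudocount of 10, 4 with median-ratio scaling and 3 with quantile normalization, and that from 240 to 260 min, 10, became 6, 4 and 6. The range of the mean profile over the 10 genes, 1.68 between 240 and 20 min, lay between 1.47 and 1.79 when 1 library or 1 gene was left out. The widest steps, 0 to 20, 220 to 230 and 240 to 260 min, kept their direction in all 10 genes under every scaling and pseudocount tried. Smaller steps did not, the median of the 10 genes from 210 to 220 min being -0.26 as reported and 0.03 with quantile normalization, that from 20 to 60 min 0.02, -0.22 with median-ratio scaling and -0.31 with quantile normalization, and that from 230 to 240 min 0.16 and -0.01 with median-ratio scaling. The lowest point of the mean profile moved to 60 min under both scalings and with a pseudocount of 10. No paired analysis was possible because each time point has 1 RNA-seq library. The planned counts of promoter motifs were not run, since no promoter sequences were used here. With 1 library per time, a difference at a single time point rests on that library alone.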

Other observations

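Some neighbours of the fork genes are transcribed towards them, and without strand any overlapping transcript ends cannot be told apart. The nearest, EGH1, ends 78 bases from PRI1. RFC5, a clamp loader subunit, ends 160 bases from POL30 and had r = 0.934 with the mean profile of the 10 genes. DUN1, a checkpoint kinase, ends 141 bases from POL3 and had r = 0.723. SKP2 ends 180 bases from RFA2, and SWD1 ends 468 bases from RFA1. For EGH1, SKP2 and SWD1 no r is given here. The part of such reads in these values was not tested.

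Subunits of ribonucleotide reductase had unlike courses. The main large subunit, RNR1, had a high of 323 RPKM (230 min) and a low of 14.1 RPKM (260 min), with r = 0.911 to the mean profile of the fork genes. RNR2, RNR3 and RNR4 had r of -0.05, -0.64 and -0.36. None but RNR2 of these 4 passed the spline test (limma adjusted p of 0.15 for RNR1, 0.138 for RNR3 and 0.113 for RNR4). These genes were named after their values were seen.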
